A study of Mus musculus with 6 samples.

Results

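The hypoxia-inducible factors and a panel of their target genes were followed through 6 RNA-seq libraries of C2C12 cells, an established mouse myoblast line that fuses into myotubes when serum is reduced. The set holds 10 genes of the 17558 in the table, chosen by name: the factor subunits Hif1a and Epas1, the oxygen-sensing hydroxylases Egln1 and Egln3, and the target genes Vegfa, Adm, Ndrg1, P4ha1, Bnip3 and Ankrd37. All 10 were found in the table, and 9 passed the filter on low counts, Adm only through the shPkm1 libraries. The cells carried stably transfected short hairpin RNAs on a wild-type background: a scrambled control (shScr), or a hairpin aimed at either Pkm1 (shPkm1, Pkm1 knockdown) or Pkm2 (shPkm2, Pkm2 knockdown), which are spliced from the same gene, Pkm, that encodes pyruvate kinase of muscle and dividing cells. Every group, the control included, was harvested at 48 h after the switch to differentiation medium, which held 2% horse serum, and is represented by 2 libraries. Whether a hairpin line was a pool or a single clone is not given in the sources used here. Nor do the labels say whether the 2 libraries of a group came from separate cultures, so the p-values measure only the spread between these libraries, which may be technical.

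The hypoxia-inducible factors are transcription factors made of an oxygen-labile alpha subunit, HIF-1α from Hif1a or HIF-2α from Epas1, and the stable partner ARNT. When oxygen is present, prolyl hydroxylases encoded by the Egln genes mark the alpha subunit for capture by VHL and destruction in the proteasome, so that much of the control is at the protein and is not visible in mRNA. When oxygen falls, the dimer binds a short DNA core near its targets, which serve vessel growth, glycolysis, collagen maturation, turnover of mitochondria and, through Egln1 and Egln3 themselves, negative feedback. In muscle, HIF signalling has been tied to glycolytic fibre metabolism and to the balance of myoblast growth and differentiation. Protein and oxygen were not measured in these libraries.

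The promoter windows of the members were searched for that core, which reads ACGTG or has G as its first base (GCGTG), on either strand, in the RefSeq windows of build GRCm38.p6, each with 250 bases before and 50 bases from a start site. A window was found for 8 of the 10 members; Epas1 and Ndrg1 had none in that table. Vegfa has 2 start sites there, which makes 9 windows, and 8 of them held at least 1 match. Across all 32851 windows of the same length, 43.8% held a match, so a match is common and describes the letters only. Matches numbered 5 in the Bnip3 window, 4 in that of Ankrd37, 3 each in those of Hif1a and P4ha1, 2 each in those of Egln1 and Adm, 1 in that of Egln3, and 0 and 2 in the Vegfa windows. The stretches that follow belong to 5 members chosen, after their values were seen, to cover the patterns described next: Hif1a was higher in both hairpin groups, Bnip3 had no call, P4ha1 and Adm were highest in shPkm1, and Egln3 was lower in both. They are written 5′ to 3′ on the gene's strand, with capitals on the core or its reverse complement. The palindrome CACGTG holds the core on both strands and counts as 2 matches. None overlaps an annotated exon.
Hif1a, chr12:73907707-73907816, plus strand, 160 to 51 bases before the start site: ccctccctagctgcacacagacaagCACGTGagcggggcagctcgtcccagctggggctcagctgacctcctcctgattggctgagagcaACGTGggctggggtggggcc
Bnip3, chr7:138909557-138909656, minus strand, 150 to 51 bases before the start site: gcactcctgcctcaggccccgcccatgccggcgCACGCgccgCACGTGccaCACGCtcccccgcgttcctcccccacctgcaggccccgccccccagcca
P4ha1, chr10:59323096-59323195, plus strand, 200 to 101 bases before the start site: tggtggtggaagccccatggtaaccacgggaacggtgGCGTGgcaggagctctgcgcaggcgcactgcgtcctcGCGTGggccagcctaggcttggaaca
Egln3, chr12:54204065-54204124, minus strand, 250 to 191 bases before the start site: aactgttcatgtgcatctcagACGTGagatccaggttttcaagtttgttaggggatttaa
Adm, chr7:110627537-110627616, plus strand, 120 to 41 bases before the start site: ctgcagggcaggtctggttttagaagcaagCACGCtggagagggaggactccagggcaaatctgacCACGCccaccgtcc

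The 6 libraries held between 18216896 and 19796036 estimated counts. Pkm, the targeted gene, averaged 3246 ± 321 CPM (counts scaled to library size) in shScr, 2092 ± 133 for shPkm1 and 3726 ± 96.0 where labelled shPkm2 (SD, n = 2 each). It fell by 0.63 on the log2 scale in shPkm1 (adjusted p = 0.00107), a call lost with limma on log2(TPM + 1), which gave -0.24. The RefSeq transcript of the Pkm1 isoform was lower in both hairpin groups, with log2 fold changes of -1.66 and -1.58. From shPkm1 to shPkm2 its value was 0.075 (adjusted p = 0.690, over 33433 transcripts), so the fall was not particular to shPkm1. The transcript of the Pkm2 isoform was not lower in the libraries labelled shPkm2, where its log2 fold change was 0.63 (adjusted p = 0.0656, over 33433 transcripts). Directions drawn from those libraries are therefore directions of the libraries so labelled, and not of a verified loss of Pkm2. For shPkm1, a loss of the Pkm1 transcript particular to its hairpin was not shown either. The part that cell state, given next, plays in that transcript was not tested. Unless an alternative is named beside them, all other adjusted p-values come from the quasi-likelihood F-test of edgeR, adjusted by Benjamini and Hochberg's method across 12643 genes. CPM use library sizes corrected with edgeR's TMM factors.

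The groups also differed in cell state, and these values stand beside every result that follows. All 20 myotube marker genes were lower in each of the 3 comparisons, with median log2 fold changes of -1.74 for shPkm1 against shScr, -7.67 for shPkm2 against shScr and -5.50 for shPkm2 against shPkm1. Summed, they reached 51240 and 34090 CPM in the shScr libraries, 11890 and 13580 in shPkm1, and 316.2 and 320.7 under the shPkm2 label, so the last group lacked most of the myotube mRNA that the other groups had. The 12 markers of proliferating cells ran the other way, from 505.9 and 595.3 CPM in shScr through 938.8 and 961.8 in shPkm1 to 2756 and 2624 in shPkm2, with 9 of 12 called higher in shPkm1 and 12 of 12 in shPkm2. Endothelial markers summed to at most 1.186 CPM in any library, with Emcn at 0, at or near the floor. Of the macrophage list, Ptprc and Adgre1 were not in the table, and the other 4 genes summed to 4.247 and 7.005 CPM in shScr and to between 13.79 and 15.79 CPM in the hairpin groups. The 4 did not move as a set: all were called higher in shPkm1, while in shPkm2 Cd68 and Cd14 were called higher and Csf1r lower than in shScr, with a median of -0.22, and Csf1r and Lyz2 were lower than in shPkm1. Lyz2 passed the filter on low counts through shPkm1 alone, so its calls add no support. Adipocyte markers stayed at or below 4.60 CPM. Of these only Pparg was tested: it was called higher in shPkm1 (0.88), not called in shPkm2 (0.30) and lower between them (-0.58). Chondrocyte or osteoblast markers, mostly Sox9, summed to 41.77 and 43.67 CPM in shScr and 34.23 and 35.49 in shPkm1. In shPkm2 they reached 78.05 and 70.42, with Ibsp at 0 throughout. Sox9, the only gene of that list tested, was called lower in shPkm1 (-0.31) and higher in shPkm2 (0.81), also against shPkm1 (1.11). The part that cell state plays in the members' values was not tested. In bulk RNA, fewer cells of a type and less RNA per cell cannot be told apart.

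**Figure D1:**
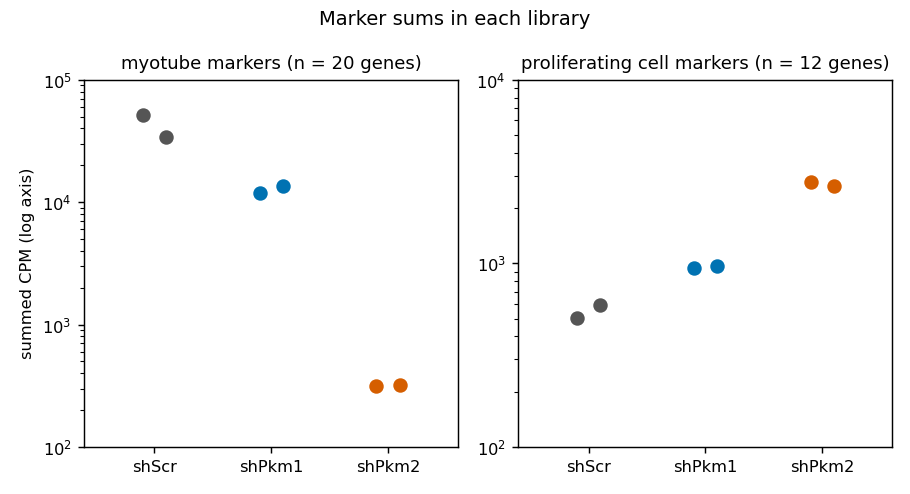
Summed CPM (log axis) of the 20 myotube markers (left) and the 12 proliferating cell markers (right) in each of the 6 libraries, 1 point per library. Myotube markers drop from 51240 and 34090 CPM in shScr to 316.2 and 320.7 CPM in the libraries labelled shPkm2, while proliferation markers rise to 2756 and 2624 CPM.

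The first comparison asked how cells with the Pkm1 hairpin differed from cells with the scrambled hairpin. Hif1a, Vegfa, Ndrg1 and P4ha1 mRNA rose in shPkm1, Ndrg1 the most at 3.03-fold, while the hydroxylases Egln1 and Egln3 fell. Adm also rose, but it entered the test only through its shPkm1 counts and so had to differ. In all, 5 of the 9 tested members were called higher and 2 lower, and Bnip3 and Ankrd37 were not called. Adm is 1 of those 5 and adds no support; without it 4 of 8 were higher with a median of 0.29. The background was high: 63.1% of all tested genes were called, 31.8% higher and 31.4% lower. The median log2 fold change of the tested members was 0.37, against -0.00015 over all genes. With library totals in place of TMM the median gene shifts by 0.19 in this comparison, by 0.33 in shPkm2 against shScr and by 0.14 in shPkm2 against shPkm1. Changes below that size depend on the scaling, and larger ones can too. Limma on log2(TPM + 1) moved Vhl, for example, from -0.54 to -0.14 in shPkm1 and from -0.69 to -0.22 in shPkm2.

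The second comparison set the libraries labelled shPkm2 against shScr. Hif1a rose 2.56-fold, as the only member called higher. Egln1, Egln3, P4ha1 and Ankrd37 were called lower, and Vegfa, Bnip3, Ndrg1 and Adm were not called. Across all tested genes 68% were called, 33.9% higher and 34.2% lower, so 5 of 9 members called is no more than the background. The median of the tested members was -0.24 against 0.0074 over all genes. Adm, which passed the filter only through shPkm1, enters that median. Without it 1 of 8 was called higher and 4 lower, with a median of -0.11. With library totals 3 members were called higher and 1 lower, and with limma on log2(TPM + 1) 4 higher and 1 lower, so the balance of directions here depends on the scaling.

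The third comparison, shPkm2 against shPkm1, tests the difference between the hairpin groups directly. No member was called higher and 6 were called lower: Vegfa, Egln3, Ndrg1, P4ha1, Adm and Ankrd37. Adm, which passed the filter only through shPkm1, adds no support here either, and without it 5 of 8 were called lower with a median of -0.69. At an unadjusted p under 0.05 edgeR also gave 0 higher, and DESeq2 called 0 after adjustment, while by library totals 1 member, Egln1, was called higher. Hif1a itself did not differ by the test. Over all tested genes 53% were called, 25.7% higher and 27.3% lower. The median of the tested members was -0.74 against 0.0046 over all genes. The comparisons with shScr share its 2 libraries and are not independent of each other.

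**Figure D2:**
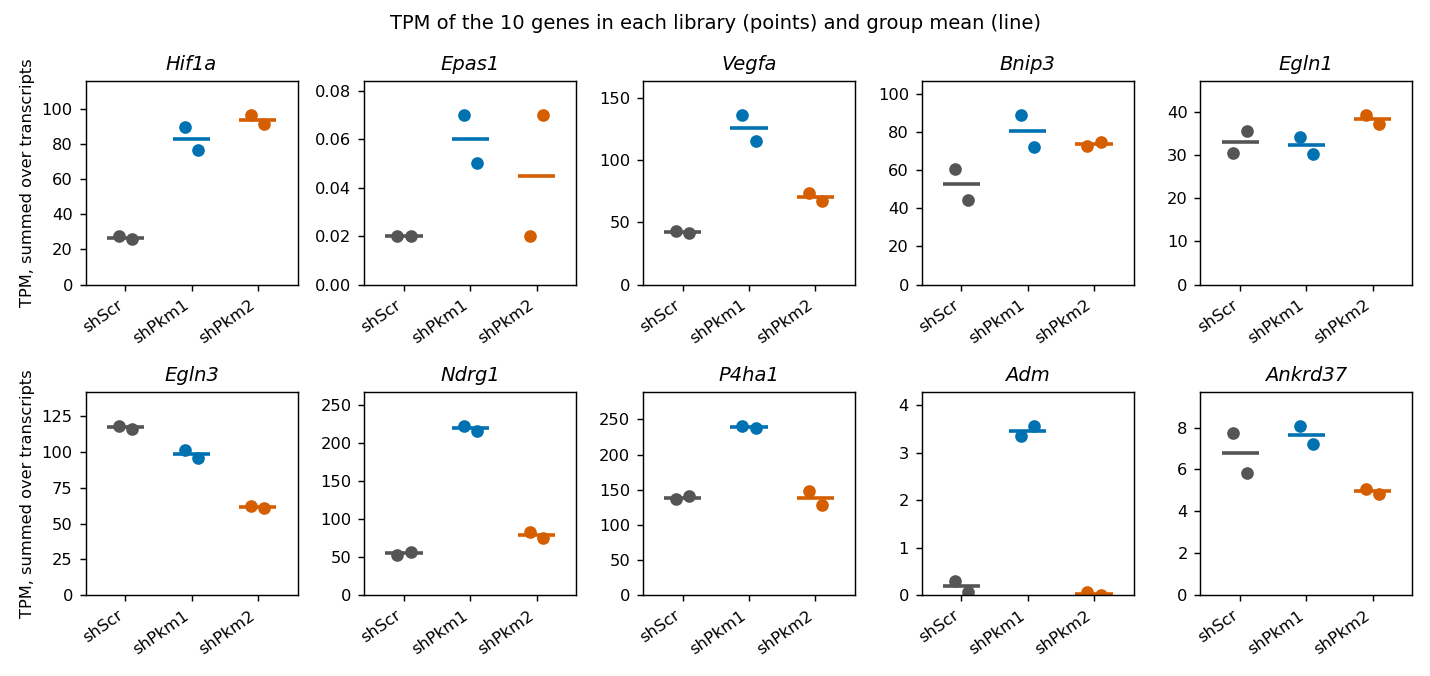
TPM (deposited values scaled to transcript length, summed over each gene's transcripts) of the 10 genes in each library (points) and the mean of the 2 libraries of a group (line), each panel with its own axis from 0. Hif1a is high in both hairpin groups, while Vegfa, Ndrg1, P4ha1 and Adm peak in shPkm1.

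**Figure D3:**
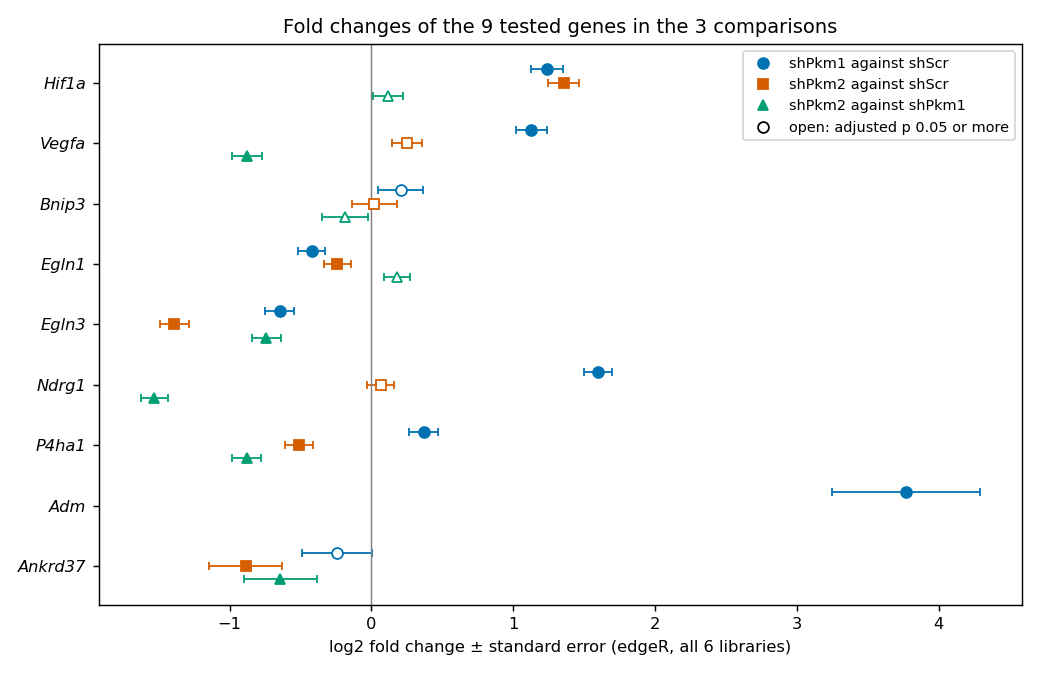
Log2 fold change with its standard error from edgeR for the 9 tested genes in the 3 comparisons, filled where the adjusted p was under 0.05. Adm is drawn only for shPkm1 against shScr, because the libraries labelled shPkm2 held 1 and 0 of its counts.

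Hif1a (gene 15251, chr12:73901324-73947554, plus strand, GRCm38.p6) encodes the alpha subunit of HIF-1. It measured 89.8 and 75.7 CPM in shScr, 205.3 and 185.4 in shPkm1, and 212.3 and 211.3 under the shPkm2 label. Every hairpin library lay above both controls, and the hairpin groups lay close to each other without overlap. The log2 fold change was 1.24 ± 0.11 (SE, adjusted p = 7.06e-07) in shPkm1 and 1.36 ± 0.11 (adjusted p = 1.69e-07) in shPkm2. Between the hairpin groups it was 0.12 ± 0.11 (adjusted p = 0.375). Hif1a held the same calls under all alternatives that were run.

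Epas1 (gene 13819, chr17:86753864-86833410), which encodes HIF-2α, was at the floor of detection. Its estimated counts were 1 and 1 in shScr, 4 and 3 in shPkm1 and 1 and 4 in shPkm2, where 3 counts were taken as the floor. It was not tested and no fold change is given. Per length it reached at most 0.07 TPM, against 25.81 TPM for Hif1a in its lowest library, so the alpha subunit mRNA in these cells was almost wholly that of Hif1a.

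Egln1 (gene 112405, chr8:124908587-124949254) encodes PHD2, the prolyl hydroxylase that sets HIF-1α turnover at normal oxygen in most cells. It measured 82.0 and 84.8 CPM in shScr, 64.4 and 60.2 in shPkm1, and 70.8 and 70.6 in shPkm2. The groups did not overlap, with shScr highest, but the differences were small: -0.42 ± 0.09 in shPkm1 (SE, adjusted p = 0.00165) and -0.24 ± 0.09 in shPkm2 (adjusted p = 0.0359). With library totals the shPkm1 value was -0.23 and no longer called, and the shPkm2 value turned to 0.084. Limma on log2(TPM + 1) gave -0.030 (adjusted p = 0.846) in shPkm1 and 0.21 (adjusted p = 0.149) in shPkm2, so neither was called on that scale. The shPkm2 call was also lost without shScr replicate 2 (-0.21, adjusted p = 0.0721), without shPkm2 replicate 1 (-0.24, adjusted p = 0.154) and without shPkm2 replicate 2 (-0.24, adjusted p = 0.156).

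Egln3 (gene 112407, chr12:54178981-54203874) encodes PHD3, the hydroxylase whose gene is a strong HIF target in many cells and whose stretch with a single core match is printed above. It measured 240.1 and 208.5 CPM in shScr, 143.3 and 143.1 in shPkm1, and 84.7 and 86.5 in shPkm2. The 3 groups formed separate steps. Egln3 fell by 0.65 ± 0.10 (SE, adjusted p = 9.93e-05) in shPkm1 and by 1.39 ± 0.10 (adjusted p = 6.57e-08) in shPkm2 on the log2 scale. The step from shPkm1 to shPkm2 was -0.74 ± 0.10 (adjusted p = 4.07e-05). Limma on log2(TPM + 1) gave a smaller fall in shPkm1 (-0.25, adjusted p = 0.0424) and -0.92 in shPkm2. Egln3 thus moved opposite to Hif1a in both comparisons with shScr. Within a library, the TPM of Egln3 over that of Egln1 was 3.88 and 3.26 in shScr, 2.95 and 3.15 in shPkm1, and 1.59 and 1.62 in shPkm2, a ratio chosen after the values were seen and given with no test.

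Among the secreted targets, Vegfa (gene 22339, chr17:46016993-46032377) encodes the main growth factor of vessel endothelium. It measured 107.6 and 92.3 CPM in shScr, 229.2 and 207.9 in shPkm1, and 121.3 and 116.5 under the shPkm2 label. The shPkm1 libraries stood apart, while shPkm2 lay just above shScr. The log2 fold change was 1.13 ± 0.11 (SE, adjusted p = 1.29e-06) in shPkm1 and 0.25 ± 0.11 (adjusted p = 0.0511) in shPkm2. From shPkm1 to shPkm2 it was -0.88 ± 0.11 (adjusted p = 1.27e-05). The value in shPkm2 lay at the threshold: it was called with a block for replicate number (0.25, adjusted p = 0.0430), when genes averaging under 50 counts were left out (0.25, adjusted p = 0.0438), by library totals (0.58), by limma on log2(TPM + 1) (0.72) and without shScr replicate 1 (0.37).

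Adm (gene 11535, chr7:110627657-110629820) encodes adrenomedullin, a vasodilator peptide. Its estimated counts were 5 and 1 in shScr, 45 and 53 in shPkm1, and 1 and 0 in shPkm2. Only the shPkm1 libraries were clearly above the floor, at 2.40 and 2.68 CPM. The log2 fold change in shPkm1 was 3.77 ± 0.52 (SE, adjusted p = 3.84e-05), with values from 2.98 without shScr replicate 2 to 5.34 without shScr replicate 1, and it describes a gene that passed the filter through that group. Pooled over the 2 libraries of a group, 98 counts in shPkm1 stood against 1 in shPkm2, a ratio of 107 in CPM with an exact 95% interval for counting error from 18.8 to 4279. No fold is given for shPkm2 against shScr.

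Ndrg1 (gene 17988, chr15:66929318-66969641) encodes a stress-responsive cytoplasmic protein linked to growth arrest and differentiation. It measured 116.9 and 112.0 CPM in shScr, 342.4 and 350.6 in shPkm1, and 122.3 and 117.4 in shPkm2. The shPkm1 libraries were high and all others lay close together. The log2 fold change was 1.60 ± 0.10 (SE, adjusted p = 2.31e-08) in shPkm1 and 0.067 ± 0.096 (adjusted p = 0.548) in shPkm2. The value from shPkm1 to shPkm2 was -1.53 ± 0.10 (adjusted p = 2.59e-08). By library totals the shPkm2 value against shScr was 0.39 (adjusted p = 0.00300).

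P4ha1 (gene 18451, chr10:59323197-59373304) encodes the catalytic subunit of collagen prolyl 4-hydroxylase, which stabilises the collagen triple helix. It measured 304.3 and 277.9 CPM in shScr, 367.9 and 384.0 in shPkm1, and 209.7 and 199.3 in shPkm2, with no overlap between groups. On this scale the control lay between the hairpin groups, while in TPM its 136.2 and 141.5 lay within the 147.6 and 128.5 of shPkm2. The log2 fold change was 0.37 ± 0.10 (SE, adjusted p = 0.00596) in shPkm1, -0.51 ± 0.10 (adjusted p = 0.000548) in shPkm2, and -0.88 ± 0.10 (adjusted p = 8.24e-06) from shPkm1 to shPkm2. Without shPkm1 replicate 2 the rise in shPkm1 was 0.34 and missed the threshold (adjusted p = 0.0510). By library totals the fall in shPkm2 was -0.18 and was not called (adjusted p = 0.117), and limma on log2(TPM + 1) gave 0.78 in shPkm1 and -0.011 in shPkm2.

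Bnip3 (gene 12176, chr7:138890836-138909506), a mitochondrial outer membrane protein that serves as a mitophagy receptor, had the most core matches among the 9 member windows but no call in any comparison. It measured 79.8 and 51.6 CPM in shScr, 81.6 and 69.9 in shPkm1, and 63.9 and 69.2 in shPkm2. The control libraries were the furthest apart and spanned all values of shPkm2. Log2 fold changes were 0.21 ± 0.16 (SE, adjusted p = 0.275), 0.021 ± 0.160 (adjusted p = 0.918) and, from shPkm1 to shPkm2, -0.19 ± 0.16 (adjusted p = 0.344). The controls set these values: without shScr replicate 1 they were 0.55 (adjusted p = 3.58e-05) in shPkm1 and 0.37 (adjusted p = 0.00404) in shPkm2, and without shScr replicate 2 they were -0.076 and -0.26. By library totals and by limma on log2(TPM + 1) Bnip3 was called higher in shPkm1 (0.41 and 0.61).

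Ankrd37 (gene 654824, chr8:45996908-46000414) encodes a small ankyrin repeat protein whose gene is induced by low oxygen in several cell types. Its estimated counts were 81 and 59 in shScr, 69 and 68 in shPkm1 and 48 and 48 in shPkm2, or 5.13 and 3.33, 3.67 and 3.44, and 2.26 and 2.29 CPM. The libraries labelled shPkm2 were lowest, and those of shPkm1 lay within the range of the controls. The log2 fold change was -0.24 ± 0.25 (SE, adjusted p = 0.402) in shPkm1, -0.89 ± 0.26 (adjusted p = 0.00758) in shPkm2, and -0.64 ± 0.26 (adjusted p = 0.0498) between them. The shPkm2 call was lost without shScr replicate 1 (-0.55, adjusted p = 0.0845) and by library totals (-0.56), and the call between the hairpin groups was lost when any of the 4 libraries compared was left out, with values from -0.69 to -0.60.

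Compared per length, P4ha1 was the most abundant member in all 6 libraries, at 136.2 and 141.5 TPM in shScr, 241.2 and 237.6 in shPkm1 and 147.6 and 128.5 in shPkm2. Its first place rests on predicted non-coding models: its mRNA models alone held 44.3 and 52.0 TPM in shScr, 87.7 and 87.7 in shPkm1 and 55.1 and 46.3 in shPkm2, below Egln3, Ndrg1 and Hif1a respectively, whose values count all their models. The order of the other members changed between groups. In shScr Egln3 was second, at 118.3 and 116.0 TPM, and Hif1a was the seventh, at 27.7 and 25.8. In the libraries labelled shPkm2 Hif1a was second, at 96.5 and 91.3 TPM, and Egln3 had fallen to 62.5 and 60.5. In shPkm1 the second was Ndrg1, at 223.4 and 216.3 TPM, followed by Vegfa at 136.4 and 115.2. Neighbours such as Bnip3 and Ndrg1 in shScr (60.8 and 44.5 against 53.2 and 57.6 TPM) did not differ beyond their spread. Ankrd37 at 4.84 to 8.09 TPM, Adm at 0 to 3.57 and Epas1 were the lowest in each library.

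Ratios to Hif1a within a library do not depend on how libraries are scaled. The level of Vegfa per Hif1a was 1.55 and 1.62 in shScr and 1.526 and 1.501 in shPkm1, but 0.76 and 0.74 in the libraries labelled shPkm2. Vegfa thus kept nearly the same proportion to Hif1a in the first 2 groups. The level of Ndrg1 per Hif1a was 1.92 and 2.23 in shScr, 2.50 and 2.82 in shPkm1, and 0.86 and 0.83 in shPkm2. For P4ha1 the ratio stepped down from 4.92 and 5.48 through 2.70 and 3.09 to 1.53 and 1.41. For Egln3 it stepped from 4.27 and 4.49 through 1.13 and 1.25 to 0.65 and 0.66. For Egln1 it was 1.10 and 1.38 in shScr and between 0.38 and 0.41 in the 4 hairpin libraries. These ratios were formed after the values had been seen and carry no test.

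**Figure D4:**
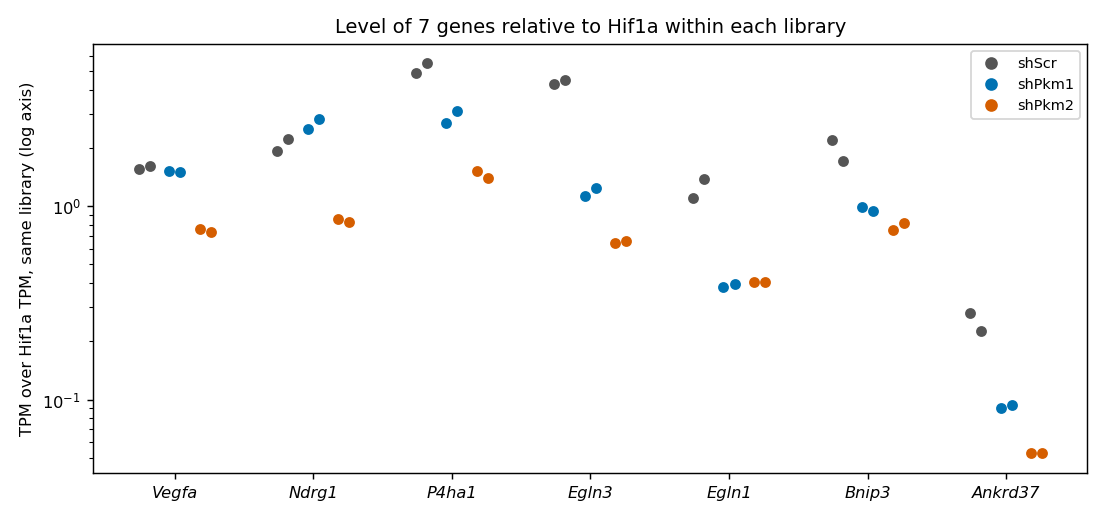
TPM of 7 members divided by the TPM of Hif1a in the same library (log axis), 1 point per library. The ratios of P4ha1, Egln3, Egln1, Bnip3 and Ankrd37 are lower in all 4 hairpin libraries than in both controls, while that of Vegfa lies between 1.501 and 1.617 in shScr and shPkm1 and at 0.76 and 0.74 in the libraries labelled shPkm2. The divisor, Hif1a, is itself higher in all 4 hairpin libraries.

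The table is by transcript, and the 10 members have 32 RefSeq transcript models, of which 28 were tested among 33433 transcripts. In shPkm1 against shScr 10 were called higher and 2 lower (10.8% of all tested transcripts were called), in shPkm2 against shScr 5 and 3 (17.2%), and in shPkm2 against shPkm1 0 and 11 (7.91%). Of the 4 tested Hif1a models, 2 were called higher in shPkm1 and 3 in shPkm2. Of the 10 Vegfa models, 5 were called higher in shPkm1, 2 were called higher in shPkm2, and 5 were called lower from shPkm1 to shPkm2. Some Vegfa models carried identical values in every library, which leaves 6 distinct sets of values. The counts of calls include these copies: the 5, 2 and 5 calls rest on 2, 1 and 2 distinct sets, and the models within a set are not separated. For P4ha1, 4 predicted non-coding models held between 67.3% and 71.3% of the gene's estimated counts, with no group apart from the others, so its gene total is mostly reads that the authors' counting assigned to models without a reading frame. Transcript counts depend on how reads shared between models were divided.

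The regulators of the pathway were followed in a list of 21 genes, of which 20 were tested, and Hif3a had at most 3 counts in any library. In shPkm1 against shScr 4 were called higher and 6 lower, with a median log2 fold change of -0.050. In shPkm2 against shScr 5 were higher and 10 lower (median -0.19), and in shPkm2 against shPkm1 4 were higher and 6 lower (median -0.12). The shares called were 50%, 75% and 50%, beside a background of 63.1%, 68% and 53%. By direction, 20% were higher and 30% lower in shPkm1 (31.8% and 31.4% of all genes). In shPkm2 against shScr these were 25% and 50% (33.9% and 34.2%), and between the hairpin groups 20% and 30% (25.7% and 27.3%). Arnt, the stable partner of both alpha subunits, measured 80.9 and 86.3 CPM in shScr, 85.5 and 79.9 in shPkm1 and 84.5 and 81.2 in shPkm2, with full overlap and log2 fold changes of -0.017, -0.015 and, between the hairpin groups, 0.0025. Arnt depended on the scaling: by library totals it was 0.18 in shPkm1 and 0.31 in shPkm2, the latter called higher (adjusted p = 0.0214), and by limma on log2(TPM + 1) it was called higher in both (0.36, adjusted p = 0.0316, and 0.43, adjusted p = 0.0108).

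Hif1an, Egln2 and Vhl, whose products restrain HIF-1α, were called lower in both hairpin groups. Hif1an, the asparaginyl hydroxylase that blocks co-activator binding, measured 97.9 and 90.4 CPM in shScr, 45.9 and 45.7 in shPkm1 and 32.0 and 27.3 in shPkm2. It fell by 1.04 ± 0.11 (SE, adjusted p = 2.29e-06) in shPkm1 and by 1.67 ± 0.11 (adjusted p = 1.73e-08) in shPkm2, and the step between them was -0.63 (adjusted p = 0.000283). Egln2, the third prolyl hydroxylase gene, fell by 0.79 (adjusted p = 1.34e-05) and by 0.93 (adjusted p = 2.00e-06). Vhl, the recognition subunit of the ubiquitin ligase, fell by 0.54 (adjusted p = 0.000877) and by 0.69 (adjusted p = 9.85e-05), and both calls were lost with limma on log2(TPM + 1), at -0.14 and -0.22. The direct comparison of the hairpin groups gave no call for Egln2 (-0.14, adjusted p = 0.242) or Vhl (-0.15, adjusted p = 0.281).

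The regulators with the largest changes were named by rule. Usp20, a deubiquitinase that acts on HIF-1α, measured 209.9 and 174.6 CPM in shScr, 40.7 and 49.4 in shPkm1 and 36.8 and 35.5 in shPkm2, log2 fold changes of -2.09 and -2.41. Siah1a (0.86) and Eloc (0.73), parts of ubiquitin ligases, rose in shPkm1. Eloc also rose in shPkm2 (0.51), a call lost without shPkm2 replicate 2 (0.37), while Siah1a had no call there (-0.095). In shPkm1 Arnt2 rose by 0.52, a call lost without shScr replicate 1 (0.20), without shPkm1 replicate 1 (0.51) and without shPkm1 replicate 2 (0.55). In the libraries labelled shPkm2 the chaperone gene Hsp90aa1 (1.18), Cited2 (1.10), which encodes a competitor for the p300 co-activator, and Ep300 itself (0.80) rose against shScr. Ep300 was also called higher in shPkm1 (0.39), a call lost without shPkm1 replicate 1 (0.35). Cited2 stood at 152.4 and 146.2 CPM in shScr, 130.8 and 135.6 in shPkm1 and 300.9 and 338.5 in shPkm2, so it was high in the last group alone. From shPkm1 to shPkm2 the log2 fold changes were 1.26 for Cited2, 1.02 for Hsp90aa1, 0.40 for Ep300, -0.96 for Siah1a and -0.62 for Siah2. The call of Ep300 between the hairpin groups was lost without shPkm1 replicate 2 (0.35) and without shPkm2 replicate 1 (0.33).

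**Figure D5:**
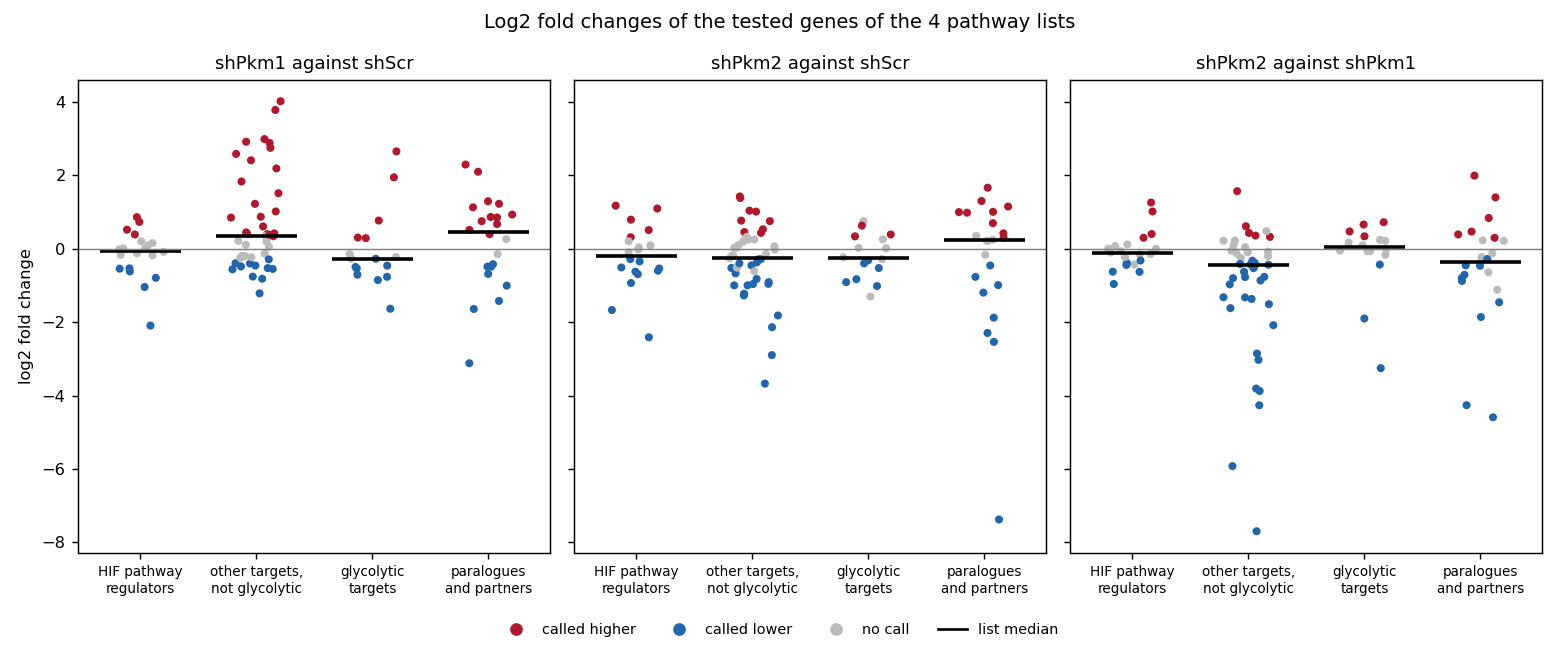
Log2 fold change of each tested gene of the 4 pathway lists in the 3 comparisons, 1 point per gene, coloured by call, with a line at the list median. In the second list the median is 0.35 in shPkm1 against shScr and -0.43 in shPkm2 against shPkm1, while the glycolytic list has medians of -0.27 and 0.044 there.

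Of 45 other hypoxia-responsive targets outside glycolysis, 44 were in the table and 43 tested, Ppp1r3c through shPkm1 alone. In shPkm1 against shScr 22 were called higher (51.2%, against 31.8% of all genes) and 11 lower (25.6%, against 31.4%), with a median of 0.35. In shPkm2 against shScr 9 were higher (20.9%, against 33.9%) and 19 lower (44.2%, against 34.2%), with a median of -0.26. In shPkm2 against shPkm1 5 were higher (11.6%, against 25.7%) and 26 lower (60.5%, against 27.3%), with a median of -0.43. Ppp1r3c is 1 of the 22 rises in shPkm1 and 1 of the 26 falls between the hairpin groups, and adds no support. The list was written with results of these data known, so its counts are a description.

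Car9, the cell-surface carbonic anhydrase widely used as a hypoxia marker, had estimated counts of 70 and 23 in shScr, 845 and 917 in shPkm1 and 5 and 4 in shPkm2. The shPkm1 libraries were high, the shPkm2 libraries were near the floor, and the controls lay between, well apart from each other. Its log2 fold change was 4.02 ± 0.28 (SE, adjusted p = 7.60e-08) in shPkm1 and -3.67 ± 0.61 (adjusted p = 0.000124) in shPkm2, and moved to 5.13 and -2.57 without shScr replicate 1 and to 3.36 and -4.34 without shScr replicate 2. Vldlr, a lipoprotein receptor, and Stc1, a secreted glycoprotein hormone, were likewise high in shPkm1 alone: Vldlr had 31 and 36 counts in shScr, 563 and 503 in shPkm1 and 13 and 6 in shPkm2. Stc1 had 12 and 19, 151 and 134, and 11 and 5. Log2 fold changes in shPkm1 were 3.79 for Vldlr and 2.99 for Stc1, and from shPkm1 to shPkm2 they were -7.70 for Car9, -5.92 for Vldlr and -4.26 for Stc1. Vldlr was also lower in shPkm2 than in shScr (-2.14), a call lost with limma on log2(TPM + 1), at -0.22, and without shPkm2 replicate 1 the value was -2.77. Leaving out the same library moved Vldlr and Stc1 against shPkm1 to -6.57 and -4.92.

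Not every target took this course. Lox, which cross-links collagen, had 1894 and 2138 counts in shScr, 15415 and 15884 in shPkm1 and 6933 and 6354 in shPkm2, and rose by 1.39 in shPkm2 against shScr. The collagen prolyl hydroxylase gene P4ha3 (1.43) also rose there, and by 2.19 in shPkm1. Nos2, the inducible nitric oxide synthase, fell in both hairpin groups, by 0.81 in shPkm1 and by 2.90 in shPkm2. The fall in shPkm1 was lost without shPkm1 replicate 2 (-0.64) and with limma on log2(TPM + 1), at -0.33. Sap30 (-1.21) and Hmox1 (-0.76) fell in shPkm1 and were also called lower in shPkm2 (-0.996 and -0.40), where the value of Hmox1 was -0.071 by library totals and 0.059 by limma on log2(TPM + 1). From shPkm1 to shPkm2 the largest rises among called genes were those of Loxl2 (1.57), Tfrc (0.62) and Ak4 (0.43), the last lost when any of the 4 libraries was left out, with values from 0.37 to 0.48.

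Bnip3l, the paralogue of Bnip3 and like it a mitophagy receptor, rose in both hairpin groups: it measured 81.6 and 64.6 CPM in shScr, 144.9 and 118.8 in shPkm1 and 121.3 and 125.4 in shPkm2. The log2 fold changes were 0.85 (adjusted p = 7.20e-05) and 0.76 (adjusted p = 0.000147), and the hairpin groups overlapped, with -0.096 (adjusted p = 0.540) between them and 0.032 by library totals. Pdk1, which encodes a kinase that closes the entry of pyruvate into mitochondria, measured 62.6 and 48.0 CPM in shScr, 74.8 and 69.5 in shPkm1 and 49.05 and 51.05 in shPkm2. It rose by 0.39 (adjusted p = 0.0135) in shPkm1, a call lost without shScr replicate 2 (0.21) and without shPkm1 replicate 1 (0.35). In shPkm2 against shScr it was -0.14 (adjusted p = 0.316), with no stable direction: it was 0.19 by library totals, 0.41 with a call for a rise (adjusted p = 0.0120) by limma on log2(TPM + 1), and -0.32 with a call for a fall (adjusted p = 0.00881) without shScr replicate 2. From shPkm1 to shPkm2 it fell by 0.53 (adjusted p = 0.00238).

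Of the glycolytic targets of the pathway, a list of 16 genes, all were tested, Slc2a3 and Aldoc through shPkm1 alone. In shPkm1 against shScr 5 were higher and 8 lower (median -0.27), in shPkm2 against shScr 3 and 6 (median -0.25), and between the hairpin groups 4 and 3 (median 0.044). As shares these are 31.25% higher and 50% lower in shPkm1 (31.8% and 31.4% of all genes), 18.75% and 37.5% in shPkm2 (33.9% and 34.2%), and 25% and 18.75% between them (25.7% and 27.3%). Slc2a3 and Aldoc are 2 of the 5 rises in shPkm1 and 2 of the 3 falls between the hairpin groups, and add no support. Hk2, the hexokinase of muscle, measured 98.6 and 85.8 CPM in shScr, 27.3 and 32.1 in shPkm1 and 52.5 and 45.8 in shPkm2. It fell by 1.63 in shPkm1 and by 0.91 in shPkm2, and from shPkm1 to shPkm2 it rose by 0.73. The aldolase gene Aldoa (-0.85 and -1.01) and the triose phosphate isomerase gene Tpi1 (-0.76 and -0.83) fell in both groups, while Pfkp, a phosphofructokinase, rose in both (0.77 and 0.34). The rise of Pfkp in shPkm2 was lost without shPkm2 replicate 1 (0.31), and it fell by 0.43 from shPkm1 to shPkm2. Pgam1 rose in shPkm2 (0.63), and so did the glucose transporter gene Slc2a1 (0.39), which with Hk1 also rose from shPkm1 to shPkm2 (0.66 and 0.48). Slc2a1 was called lower in shPkm1 (-0.27), but not by library totals (-0.076), in a fit to the compared groups alone (-0.26), without shPkm1 replicate 1 (-0.28) or without shPkm1 replicate 2 (-0.24), and limma on log2(TPM + 1) gave 0.12.

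Small rises of Pgam1 (0.29) and of the lactate exporter gene Slc16a3 (0.31) in shPkm1 held less well. That of Pgam1 was lost under a block for replicate number (0.29, adjusted p = 0.0564), in a fit to the compared groups alone (0.30, adjusted p = 0.0552), without shPkm1 replicate 1 (0.32) and without shPkm1 replicate 2 (0.28). That of Slc16a3 was lost with DESeq2 (0.30, adjusted p = 0.0549), without shScr replicate 2 (0.16), without shPkm1 replicate 1 (0.36) and without shPkm1 replicate 2 (0.28).

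Paralogues and partners of the members were followed in 25 genes, of which 22 were tested and the vessel receptor genes Kdr and Flt4 and the receptor-activity-modifying gene Ramp1 were too low. In shPkm1 against shScr 12 were higher and 8 lower (median 0.46), in shPkm2 against shScr 9 and 8 (median 0.23), and in shPkm2 against shPkm1 6 and 10 (median -0.36). As shares these are 54.55% and 36.36% (31.8% and 31.4% of all genes), 40.91% and 36.36% (33.9% and 34.2%), and 27.27% and 45.45% (25.7% and 27.3%). The Vegfa relatives Vegfd (2.10) and Pgf (1.30) and the co-receptor gene Nrp2 (1.23) rose in shPkm1, while Vegfb fell by 1.00. Nrp2 (1.00) and Pgf (0.42) also rose in shPkm2, the latter not without shPkm2 replicate 2 (0.34). Vegfd had 56 and 87 counts in shScr, 351 and 354 in shPkm1 and 217 and 227 in shPkm2, and so was above the controls in both hairpin groups, by 1.30 in shPkm2. Flt1, a receptor of Vegfa, had 37 and 38, 46 and 58, and 162 and 139 counts and rose by 1.67 in shPkm2, where the co-receptor gene Nrp1 rose by 1.15, against 0.94 in shPkm1.

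The receptor of adrenomedullin is formed by the products of Calcrl and either Ramp2 or Ramp3. Calcrl had 87 and 106 counts in shScr, 38 and 33 in shPkm1 and 177 and 134 in shPkm2, so it was lowest where Adm was highest. It fell by 1.64 in shPkm1, and from shPkm1 to shPkm2 it rose by 2.00. Ramp2 had 87 and 91, 181 and 194, and 57 and 56 counts, and rose by 0.87 in shPkm1, fell by 0.99 in shPkm2 and fell by 1.86 between them. Ramp3, named after its values were seen, had 47 and 27, 16 and 16, and 6 and 10 counts. It fell by 1.42 in shPkm1 and by 2.54 in shPkm2, and was -1.12 between them (adjusted p = 0.0782), called in a fit to the compared groups alone (adjusted p = 0.0216) and by limma on log2(TPM + 1) (-0.48). Its call in shPkm1 was lost without shScr replicate 1 (-0.87), without shPkm1 replicate 1 (-1.44) and without shPkm1 replicate 2 (-1.38). Of the relatives of Ndrg1, Ndrg4 fell by 1.88 in shPkm2 against shScr and by 1.46 against shPkm1. In shPkm1 it was -0.42, a call lost by library totals (-0.23), and limma on log2(TPM + 1) gave 0.024. Ndrg3, named after its values were seen, was called higher in shPkm1 (0.75) and in shPkm2 (0.30), the latter not without shPkm2 replicate 2 (0.28), and lower in shPkm2 than in shPkm1 (-0.45). Ndrg2, named in the same way, was called higher from shPkm1 to shPkm2 (0.39), a call lost when any of the 4 libraries was left out, with values from 0.33 to 0.44. The muscle ankyrin repeat gene Ankrd2 fell by 3.12 in shPkm1, by 7.38 in shPkm2 and by 4.26 between them, the direction of the myotube markers, and Ankrd1 fell by 1.19 in shPkm2 and by 0.49 in shPkm1, the latter not with limma on log2(TPM + 1) (-0.091). Vegfb rose by 0.84 and Flt1 by 1.40 from shPkm1 to shPkm2.

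The genes whose pattern was most like that of Hif1a over the 6 libraries were found among 10953 genes that averaged at least 50 counts. Closeness was the root mean square difference of log2 CPM centred on each gene's mean. Cd109, which encodes a cell-surface protein, was the closest at 0.036 log2 units, followed by Smarca5, a chromatin remodelling ATPase gene, at 0.057, and Lrrc8c, a gene for a subunit of volume-regulated anion channels, at 0.059. Cd109 had 298 and 284 counts in shScr, 795 and 747 in shPkm1 and 966 and 974 in shPkm2. No target gene of the set was among these 3. With only 3 of 10953 genes kept, that absence does not tell whether the targets followed Hif1a.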

How the data were processed

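RNA from 6 libraries of C2C12 cells in 3 groups of 2 was analysed, with groups and replicate numbers taken from the sample titles. The authors deposited 1 table with 57920 RefSeq transcripts, which per the file headers gives an estimated count, an FPKM and a TPM for each transcript and library. The FPKM values deposited by the authors were not used. Per the submitters' processing notes HISAT, StringTie, Bowtie, RSEM, DESeq2 and the build mm10 were named, with no role or version, and strandedness is not given in the sources used here. There were 0 columns of single-library values without a sample.

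The deposited estimated counts were added up by NCBI gene number (17558 genes, 113 without a symbol) and rounded. Genes were tested with edgeR 4.0.16 in R 4.3.3: filterByExpr (minimum count 10, minimum total 15) left 12643 genes, TMM scaled the libraries, and a quasi-likelihood fit to all 6 libraries with 1 coefficient per group gave 3 two-sided contrasts. Calls are Benjamini-Hochberg adjusted p-values under 0.05 over all tested genes. The standard error is the absolute log2 fold change over the root of F. Transcripts were fitted the same way. Deposited TPM values, scaled by the authors to transcript length, were summed per gene to compare levels between genes. Depth ran from 18216896 to 19796036 estimated counts; the floor of 3 counts per library and the exact interval cover counting error only. The fits were tested on simulated data, in which far fewer genes changed than were called here. That test therefore does not cover a shift as broad as the one in these libraries.

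The members, the 4 gene lists and the marker lists were chosen with earlier results of these data known. Named genes were the members, Pkm, Vhl, Arnt, Hif1an, Egln2, Bnip3l and Pdk1, and from each list and comparison up to 3 called genes with the largest rise and up to 3 with the largest fall, among genes averaging at least 50 counts, with groups that do not overlap. A gene that this rule names is not reported here. For some of these genes a value from a further comparison is given, chosen once their values were known. The 3 genes closest in pattern were sought for Hif1a only, since Epas1 was at the floor. Alternatives were DESeq2 size factors, library totals, no filter beyond 1 count, a filter at an average of 50 counts, DESeq2 1.42.0, a fit to the compared groups alone, a block for replicate number, limma 3.58.1 on log2(TPM + 1) and log2(TPM + 0.1), and leaving out each library. Promoter windows came from RefSeq (GRCm38.p6). A permutation test was not used, since 2 libraries against 2 cannot pass the threshold. Tables and figures were made with Python 3.11.15, pandas 2.3.3 and matplotlib 3.10.9.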

Additional observations from a re-analysis of the deposited data

How the results depend on the processing

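The precision rests on 2 libraries per group, and small changes depend on the scaling. Members called lower in shPkm1 against shScr numbered 1 by library totals, 1 by limma on log2(TPM + 1) and 1 on log2(TPM + 0.1), against 2. Members called higher in shPkm2 against shScr numbered 3 by library totals, 2 with a mean of at least 50 counts, 4 and 4 by the limma fits, and 1 to 3 when a library was left out, against 1. Members called lower there numbered 1 by library totals and 1 and 1 by limma, against 4. From shPkm1 to shPkm2, 1 member was higher by library totals, against 0.

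The deviations of same-numbered libraries correlated at -0.026, 0.042 and 0.053, so no large effect shared by replicate number was seen. Whether same-numbered libraries were cultured or prepared together is not given in the labels, and this check cannot tell. With the replicate block 2 members were called higher in shPkm2 against shScr, Vegfa joining Hif1a, and the counts in the other comparisons and directions were unchanged. The block ended the call of Pgam1 in shPkm1, and apart from Vegfa it changed no other call of a named gene in the comparisons given for it.

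Signs reversed as follows; the cause was not tested. Bnip3 ranged from -0.076 to 0.55 in shPkm1 and from -0.26 to 0.37 in shPkm2 when a library was left out. Ankrd37 in shPkm1 was 0.16 and 0.18 by limma and -0.53 to 0.092 with a library left out. Egln1 in shPkm2 was 0.084 by library totals and 0.21 and 0.22 by limma. Arnt in shPkm1 was 0.18 by library totals and 0.36 and 0.37 by limma, and in shPkm2 it was 0.31, 0.43 and 0.45. With a library left out Arnt ranged from -0.063 to 0.036 in shPkm1, from -0.060 to 0.035 in shPkm2 and from -0.045 to 0.042 between the hairpin groups. There Arnt was -0.0019 with DESeq2 size factors and with DESeq2, -0.0059 without the filter and -0.0064 with a mean of at least 50 counts. Pdk1 in shPkm2 was 0.19 by library totals, 0.41 and 0.43 (both called higher) by limma, and -0.32 to 0.062 with a library left out. Bnip3l between the hairpin groups was 0.032 by library totals and -0.23 to 0.044 with a library left out. Slc2a1 in shPkm1 was 0.12 and 0.12 by limma, Ndrg4 there 0.024 and 0.024, and Hmox1 in shPkm2 0.059 and 0.059. Of the members' fold changes under the alternatives, 297 kept their direction and side of the threshold, 23 lost and 18 gained a call, and 9 reversed. For the other named genes these numbers were 1289, 50, 8 and 28.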
